A study of Mus musculus with 8 samples.

Results

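The SOCS family comprises the 8 genes Socs1 to Socs7 and Cish, which encode the suppressors of cytokine signalling. All 8 were measured, on 12 probe sets among the 35556 of the array, and they are 8 of 19938 genes that the array annotation names singly. The members were set by gene symbol rather than by a measured value, though earlier results of these data were known when they were chosen. Where a gene had several probe sets, the brightest on average stands for the gene and the others are shown beside it.

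RNA was taken from macrophages that had been differentiated out of mouse bone marrow over 10 days in M-CSF at 10 ng/ml, left overnight without serum and then exposed for 4 h to recombinant murine IL-6 at 50 ng/ml. IL6raKO cultures (4 arrays) came from mice labelled IL6ralpha flox/flox LysMCre tg/wt. In this design a Cre recombinase expressed in myeloid cells is meant to delete loxP-flanked sequence of the IL-6 receptor alpha chain gene. Ctrl cultures (4 arrays) came from mice labelled IL6ralpha flox/flox, which carry the same floxed alleles and no Cre. No culture was left without IL-6. The comparison asks how family members differ between these genotypes after IL-6, and the IL-6 response itself cannot be told apart from a difference present before it. Cre and receptor loss likewise cannot be told apart. The labels call the arrays biological replicates without naming separate animals, and give no age, so p-values measure the spread between these 8 cultures, part of which may be technical.

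SOCS proteins are brakes on cytokine receptors. A cytokine receptor activates JAK kinases, these phosphorylate STAT transcription factors, and STATs switch on genes that include Cish, Socs1, Socs2 and Socs3, whose proteins then dampen the receptor that induced them. Each family member carries an SH2 domain, which binds phosphotyrosine, and a carboxy-terminal SOCS box, which recruits the elongins B and C and a cullin-based ubiquitin ligase. SOCS3 binds the IL-6 receptor chain gp130 and inhibits its JAKs, and is known in mouse macrophages as the feedback inhibitor that keeps the STAT3 response to IL-6 short.

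STAT dimers bind spaced TTC and GAA half-sites, and the promoter stretches below are shown because they hold such letters, or those of a related motif, near the start of 3 cytokine-induced members. They were read from RefSeq promoters of GRCm38.p6, which are 300-base windows around an annotated transcript start and held 4 of the 8 members (Cish, Socs1, Socs3 and Socs4). Capitals mark matches to TTCNNNGAA, the STAT motif, which reads the same on both strands, in Cish and Socs3, and to GAAANNGAA or its reverse complement TTCNNTTTC, an interferon regulatory factor motif, in Socs1. Positions count from the annotated start, with -1 the base before it.
Socs3, chr11:117969367-117969566, minus strand, positions -200 to -1: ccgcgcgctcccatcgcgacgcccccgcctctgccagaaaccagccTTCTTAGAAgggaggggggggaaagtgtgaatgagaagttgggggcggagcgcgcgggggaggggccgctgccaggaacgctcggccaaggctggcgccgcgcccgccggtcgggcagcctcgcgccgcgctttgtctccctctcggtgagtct
Cish, chr9:107296599-107296678, plus strand, positions -60 to 20: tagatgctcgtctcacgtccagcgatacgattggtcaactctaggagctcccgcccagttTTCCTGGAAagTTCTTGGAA
Socs1, chr16:10785537-10785656, minus strand, positions -120 to -1: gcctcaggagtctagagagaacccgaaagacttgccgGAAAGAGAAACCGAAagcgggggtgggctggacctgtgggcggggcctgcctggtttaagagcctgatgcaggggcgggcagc

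The Socs3 stretch held 1 STAT match, at -154 to -146. The Cish stretch held 2 in tandem, TTCCTGGAA at 1 to 9 and TTCTTGGAA at 12 to 20, just past the annotated start. The Socs1 stretch held 2 overlapping interferon regulatory factor matches, at -83 to -75 and -77 to -69. Among all 32851 such windows, 8.30% held the STAT motif, 0.457% held it at 2 or more places and 8.56% held the interferon regulatory factor motif. The STAT half-sites TTC and GAA set 4 bases apart, also the same on both strands, were found in 6.95% of all windows and in 0 of the 4 member windows. The Socs4 window held none of these motifs. A match describes letters only and is not a measured binding site.

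After IL-6, no SOCS family gene passed the test between genotypes. In limma, with p-values adjusted over all 19938 genes, 0 of 8 members had an adjusted p under 0.05, where 0.0301% of all genes did. At an unadjusted p under 0.05, 1 member was lower in IL6raKO (Socs3) and 1 was higher (Socs5), against 4.54% of all genes lower and 2.74% higher. The other 6 members lay between -0.04 and 0.08 on the log2 scale. The median difference of the 8 members was 0.03, with 3 lower and 5 higher, and that of all genes was -0.01.

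**Figure D1:**
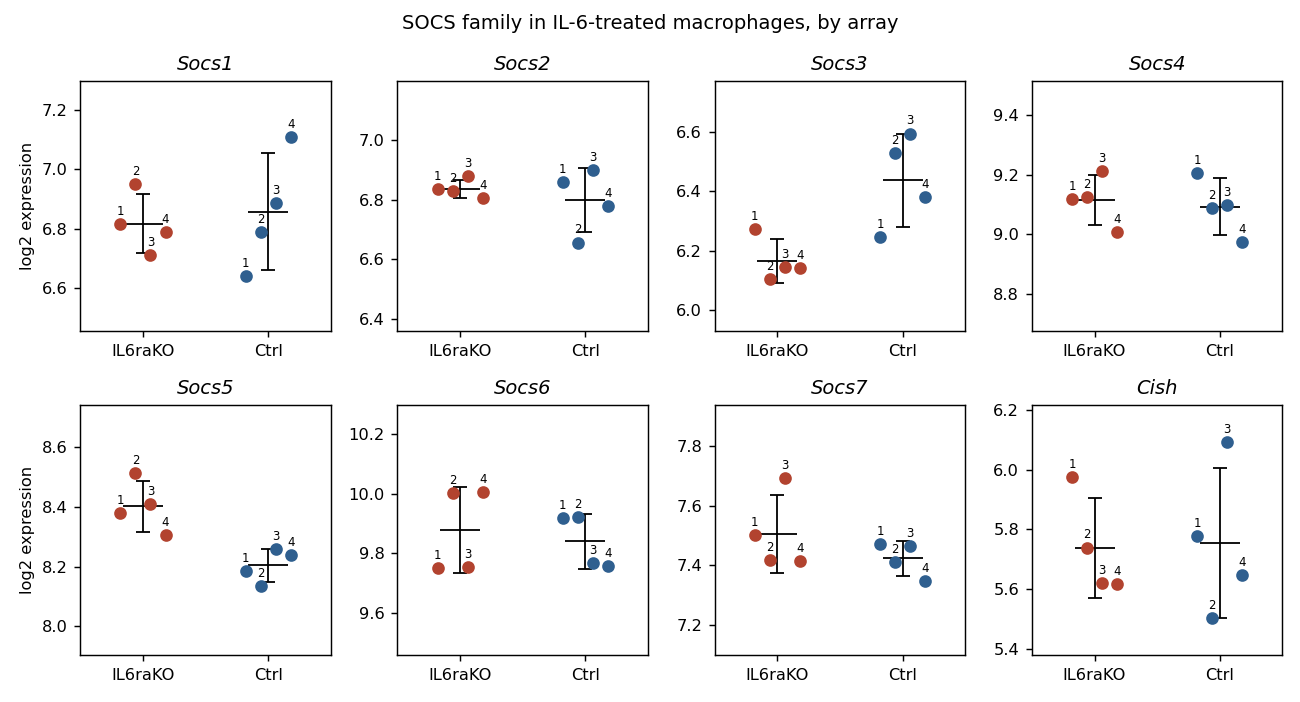
Log2 expression of each SOCS family gene in the 4 IL6raKO arrays and the 4 Ctrl arrays, with the replicate number at each point. Horizontal marks are means and bars are SD. Every panel spans the same height on the log2 scale. Socs5 is the member without overlap between the groups, and IL6raKO replicate 1 is the array whose Socs3 value reaches into the Ctrl range.

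Socs3, the gp130 inhibitor, had log2 expression of 6.27, 6.11, 6.14 and 6.14 in IL6raKO replicates 1 to 4, against 6.25, 6.53, 6.59 and 6.38 in Ctrl replicates 1 to 4. Ctrl replicates 2, 3 and 4 thus lay above every IL6raKO culture, while Ctrl replicate 1 lay just below IL6raKO replicate 1, so the groups overlapped. The means were 6.17 ± 0.07 in IL6raKO and 6.44 ± 0.16 in Ctrl (SD, n = 4 each). The difference was -0.27 (SE 0.08, 95% confidence interval -0.45 to -0.09), which puts the IL6raKO level at 82.9% of the Ctrl level (interval 73.2% to 93.9%). By unadjusted p (0.00686) Socs3 ranked 239 of 19938 genes, and its adjusted p in limma was 0.569. A difference of at least this size in either direction was seen in 1.82% of all genes. The groups overlap through IL6raKO replicate 1 and Ctrl replicate 1. Without IL6raKO replicate 1 the difference was -0.31 (limma adjusted p = 0.719), and without Ctrl replicate 1 it was -0.33 (limma adjusted p = 0.347). These arrays are the highest of IL6raKO and the lowest of Ctrl, so leaving either out could only widen the difference. With any 1 array left out it lay between -0.33 and -0.22, nearest 0 without Ctrl replicate 3 (limma adjusted p = 0.682).

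The other Socs3 probe set, annotated with 1 transcript accession against 3 for the one used, was dimmer and showed a smaller difference. It read 5.51, 5.78, 5.61 and 5.53 in IL6raKO and 5.66, 5.74, 5.64 and 5.72 in Ctrl. Here IL6raKO replicate 2 was the highest of all 8 arrays and the other 3 IL6raKO arrays were the lowest. The difference was -0.08 (95% confidence interval -0.25 to 0.08), with an adjusted p of 0.878 in limma's fit of every probe set. Within arrays, the used probe set exceeded the other by 0.56 on the log2 scale in IL6raKO and by 0.75 in Ctrl on average, a difference of -0.19 that did not pass an exact permutation test (two-sided p = 0.171, where 0.0286 is the smallest p that 4 against 4 arrays allow). The mean of both probe sets differed by -0.18 (limma adjusted p = 0.625).

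Socs1 encodes the inhibitor best known for restraining interferon-gamma signalling in macrophages and, like SOCS3, blocks JAK catalysis directly. Its log2 expression was 6.82, 6.95, 6.71 and 6.79 in IL6raKO replicates 1 to 4, against 6.64, 6.79, 6.89 and 7.11 in Ctrl replicates 1 to 4. The Ctrl group held both the lowest and the highest of the 8 values, so the groups overlapped fully. The difference was -0.04 (SE 0.10, 95% confidence interval -0.25 to 0.17, limma adjusted p = 0.950). Ctrl replicate 4 carries the highest value and Ctrl replicate 1 the lowest, and the difference was 0.04 without replicate 4 and -0.11 without replicate 1.

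Cish encodes CIS, the founding member of the family, which competes with STAT5 at cytokine receptors and is itself a STAT5 target. Cish read 5.98, 5.74, 5.62 and 5.62 in IL6raKO, against 5.78, 5.50, 6.09 and 5.65 in Ctrl. Its groups overlapped, with SDs of 0.17 in IL6raKO and 0.25 in Ctrl, the widest spread of the family in either group. The difference was -0.02 with the widest interval of the 8 members (95% confidence interval -0.28 to 0.25, limma adjusted p = 0.985). That interval holds the Socs3 estimate, so the arrays do not tell whether Cish differed as much as Socs3 did.

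Socs2, a STAT5 target best known as the brake on growth hormone signalling, was the most even member in IL6raKO. It read 6.83, 6.83, 6.88 and 6.81 in IL6raKO, against 6.86, 6.66, 6.90 and 6.78 in Ctrl, so that the Ctrl values enclosed all 4 IL6raKO values. The difference was 0.04 (95% confidence interval -0.11 to 0.18, limma adjusted p = 0.927). Its other probe set had the opposite sign, at -0.15 (95% confidence interval -0.38 to 0.08; adjusted p = 0.851 in limma's fit of every probe set), with means of 5.46 ± 0.14 in IL6raKO and 5.61 ± 0.16 in Ctrl (SD, n = 4 each). Within arrays the gap between the probe sets did not pass the exact permutation test either (two-sided p = 0.143).

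**Figure D2:**
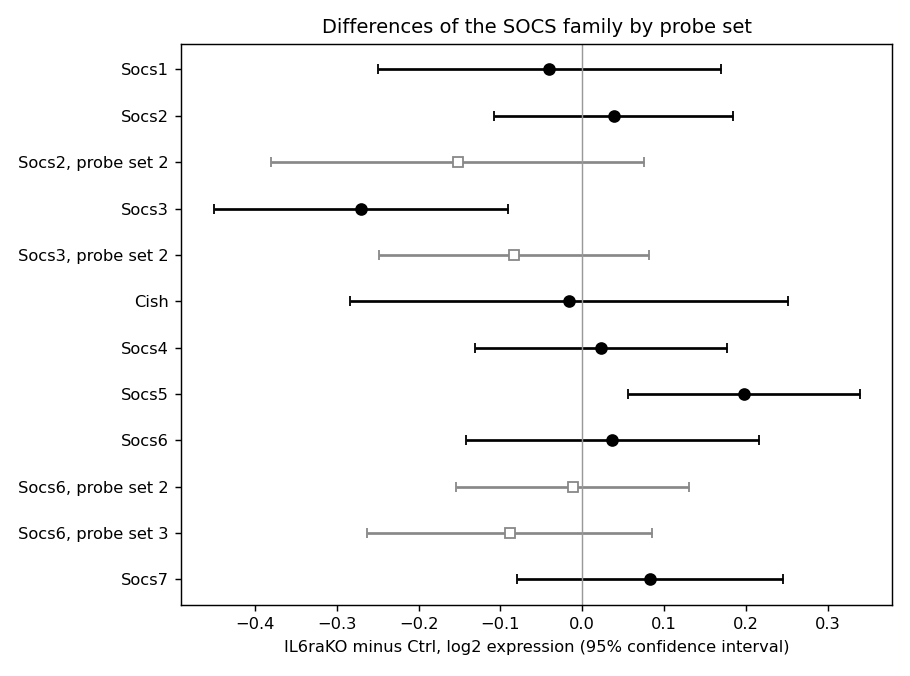
Difference of each SOCS family probe set between IL6raKO and Ctrl on the log2 scale, with its 95% confidence interval in limma. Filled circles are the probe sets that stand for the gene, with intervals from the fit of all genes. Open squares are the others, with intervals from the separate fit of every probe set. The intervals of Socs3 (-0.45 to -0.09) and Socs5 (0.06 to 0.34) lie to either side of 0 before adjustment over all genes.

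Among the members that are not classical STAT-induced feedback genes, Socs5 stood highest in IL6raKO relative to Ctrl. SOCS5 has a long amino-terminal region and has been linked to the EGF receptor and the IL-4 receptor. Socs5 read 8.38, 8.51, 8.41 and 8.31 in IL6raKO, against 8.19, 8.13, 8.26 and 8.24 in Ctrl. All 4 IL6raKO arrays lay above all 4 Ctrl arrays, a pattern that 2.07% of all genes showed, while 2.37% showed the reverse and 0 of the 8 members did. The means were 8.40 ± 0.09 in IL6raKO and 8.20 ± 0.06 in Ctrl (SD, n = 4 each). The difference was 0.20 (SE 0.06, 95% confidence interval 0.06 to 0.34), or 115% of the Ctrl level (interval 104% to 127%). Its unadjusted p of 0.0105 ranked 335 of 19938 genes and the limma adjusted p was 0.616. A difference of at least this size in either direction was seen in 6.34% of all genes.

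Socs4 encodes the closest relative of SOCS5 in the family. It read 9.12, 9.12, 9.21 and 9.01 in IL6raKO, against 9.21, 9.09, 9.10 and 8.97 in Ctrl, which overlapped. The difference was 0.02 (95% confidence interval -0.13 to 0.18, limma adjusted p = 0.962).

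Socs6 encodes an adaptor that binds the receptor tyrosine kinase KIT. It read 9.75, 10.00, 9.75 and 10.01 in IL6raKO, against 9.92, 9.92, 9.77 and 9.76 in Ctrl. In either genotype 2 arrays were near 9.75 and 2 were higher, and the difference was 0.04 (95% confidence interval -0.14 to 0.22, limma adjusted p = 0.947). Of its 2 other probe sets, one annotated with 5 accessions like the used one differed by -0.09 (95% confidence interval -0.26 to 0.09), and the other, at percentile 2.15 of all probe sets by brightness, differed by -0.01. Exact permutation tests of the gaps between the used and the other probe sets gave two-sided p = 0.229 and 0.629.

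Socs7, whose protein binds the adaptor NCK, read 7.50, 7.42, 7.69 and 7.41 in IL6raKO, against 7.47, 7.41, 7.46 and 7.35 in Ctrl. IL6raKO replicate 3 was the highest array and Ctrl replicate 4 the lowest, and the rest overlapped. The difference was 0.08 (95% confidence interval -0.08 to 0.25, limma adjusted p = 0.832). All 4 other probe sets of the family, those of Socs2, Socs3 and Socs6, had estimates below 0, between -0.15 and -0.01, and none passed.

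**Figure D3:**
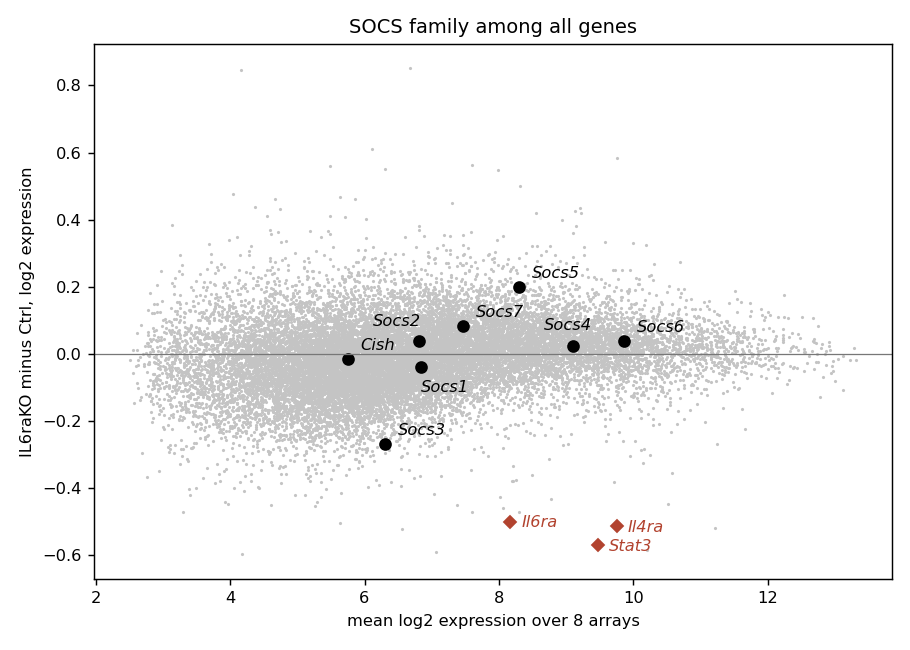
Difference between IL6raKO and Ctrl against mean log2 expression for all 19938 genes (grey), with the 8 SOCS family genes as black circles. Il6ra, Stat3 and Il4ra are red diamonds, at -0.50, -0.57 and -0.52, farther below 0 than Socs3 at -0.27.

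The members sat at very different brightness on the array. Cish was the dimmest, at percentile 33.7 of mean expression over all genes, Socs3 lay at percentile 47.1, and Socs4, Socs5 and Socs6 lay at percentiles 87.9, 79.9 and 93.4. Brightness depends on the probes as well as on RNA, so these ranks do not order the amounts of the transcripts. The robust multi-array averaging used for the deposited values is known to compress differences of dim probe sets. In all, 6 members lay above the median brightness of all genes. The SE of the members ranged from 0.06 for Socs5 to 0.12 for Cish, against a median of 0.08 over all genes.

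The receptor and STAT context of these values is as follows. Il6ra, the targeted gene, differed by -0.50 (95% confidence interval -0.66 to -0.34, limma adjusted p = 0.0607) and remained at 70.6% of the Ctrl level, all IL6raKO arrays lying below all Ctrl arrays. The position of its probes relative to the loxP-flanked sequence was not analysed here, so this value does not check the deletion. Lyz2, the locus of the Cre insertion, differed by -0.11 (limma adjusted p = 0.763). Of 6 measured STAT genes, Stat3 passed (fell by 0.57, limma adjusted p = 0.0348), where 0.0301% of all genes did. Stat2, Stat4, Stat5a, Stat5b and Stat6 lay between -0.02 and 0.03. With any 1 array left out, Stat3 lay between -0.62 and -0.54 and its limma adjusted p between 0.0771 and 0.166, so that the call was lost in all 8 such fits. Ctrl replicate 4 stood apart from the other arrays on the first principal component. Without it Socs3 differed by -0.29, Socs5 by 0.21, Socs7 by 0.06, Cish by -0.05, Socs2 by 0.03 and Socs6 by 0.01, while Socs1 (0.04) and Socs4 (-0.02) took the opposite sign.

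Of 32 measured receptors, kinases and signalling adaptors (Irs1, Irs2 and Tirap among them) listed as partners of SOCS proteins, 1 passed, Il4ra, the shared IL-4 and IL-13 receptor chain (fell by 0.52, limma adjusted p = 0.0437). With any 1 array left out, Il4ra lay between -0.55 and -0.49 and its limma adjusted p rose above the threshold, to between 0.0975 and 0.172. At an unadjusted p under 0.05, 2 were lower, Il4ra and Il6ra, and 0 were higher. Il6ra is the gene targeted in IL6raKO, so its place in that count is no independent result. Over all genes, 4.54% were lower and 2.74% higher at that threshold, and 0.0301% passed after adjustment. Il27ra, the IL-27 receptor, differed by -0.17 and Il10ra, the IL-10 receptor, by 0.14 (limma adjusted p = 0.683 and 0.707). For gp130 itself the difference of Il6st was 0.09 (95% confidence interval -0.06 to 0.23). Jak1, the main kinase at that chain, was at -0.01 (95% confidence interval -0.14 to 0.11). Csf1r, the M-CSF receptor on which these cultures depend, differed by 0.01 (95% confidence interval -0.12 to 0.13). The median of the list was 0.00, against -0.01 over all genes.

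Of 23 measured JAK-STAT inhibitors outside the SOCS family, 0 passed in limma. At an unadjusted p under 0.05, 1 was lower and 2 were higher, against 4.54% of all genes lower and 2.74% higher. Ptpn1, the phosphatase PTP1B that acts on JAK2 and TYK2, differed by -0.36 (SE 0.08, limma adjusted p = 0.358), with means of 8.32 in IL6raKO and 8.68 in Ctrl and no overlap. Stap1, an adaptor with an SH2 domain, differed by 0.27 (SE 0.07, limma adjusted p = 0.542), and Cblb, a ubiquitin ligase, by 0.18 (SE 0.07, limma adjusted p = 0.625), likewise without overlap. In the list, 1 gene had all IL6raKO arrays below all Ctrl arrays and 3 had them above. Among all genes, 2.37% lay wholly below and 2.07% wholly above. Ptpn6, the phosphatase SHP-1, differed by -0.14 (limma adjusted p = 0.708). The list's median was 0.07, with 17 members higher and 6 lower.

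No gene of the machinery that the SOCS box recruits passed the test. Of 13 measured ligase partners, among them the elongins, Cul5, Rnf7 and the neddylation enzymes, 0 passed in limma and 0 had an unadjusted p under 0.05. Their differences lay between -0.07 and 0.14, the highest being Uba3, a subunit of the NEDD8-activating enzyme. Of 27 measured genes of other SOCS box proteins, 0 passed in limma, 1 was lower at an unadjusted p under 0.05 (Spsb1, an adaptor that targets inducible nitric oxide synthase, at -0.19) and 1 was higher (Asb12, at 0.20). Over all genes, 4.54% were lower and 2.74% higher at that unadjusted threshold. Asb12 was dim, at 4.00 in IL6raKO and 3.80 in Ctrl.

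Genes that the same STATs induce were counted in the same way, and some stand in more than 1 list. Like the lists above, these were drawn up with earlier results of these data known, so their counts are no independent support. Of 24 measured STAT3 targets other than Socs3, 2 passed, Stat3 and Il4ra, where 0.0301% of all genes did. At an unadjusted p under 0.05, 7 were lower and 4 higher, against 4.54% of all genes lower and 2.74% higher. Nfil3, a basic leucine zipper factor, differed by -0.47 (limma adjusted p = 0.121), and Vegfa, a vascular growth factor, by 0.36 (limma adjusted p = 0.237). The list's median was -0.07. Of 17 measured STAT5 targets other than Cish and Socs2, 0 passed in limma, 1 was lower and 1 higher at an unadjusted p under 0.05, namely Ccnd2, a G1 cyclin, at -0.24 and Myc at 0.23, and the median was -0.02.

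**Figure D4:**
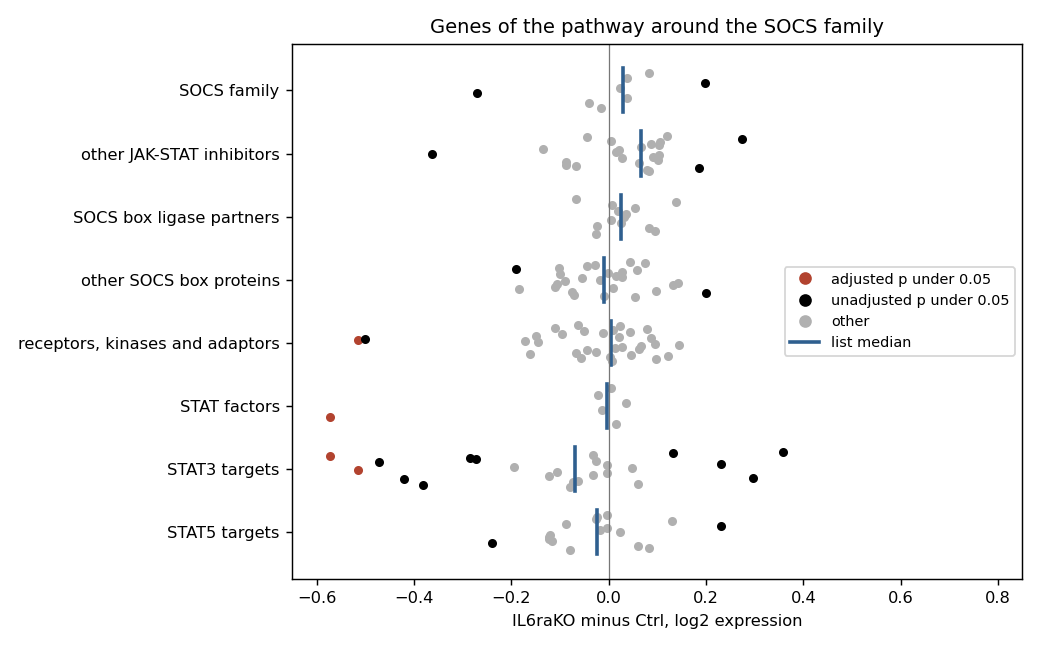
Difference between IL6raKO and Ctrl for each measured gene of the SOCS family and of lists around it, on the log2 scale. Red points have a limma adjusted p under 0.05, black points an unadjusted p under 0.05, and blue bars are list medians. The ligase partners lie between -0.07 and 0.14, and the red points are Stat3 and Il4ra.

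The macrophage markers Adgre1 and Csf1r were bright in the cultures. Marco, of the same list, was dimmer, at 6.11 in IL6raKO and 6.05 in Ctrl. Adgre1, which encodes F4/80, was at 12.27 in IL6raKO and 12.35 in Ctrl, and Csf1r at 12.34 in IL6raKO and 12.33 in Ctrl. The 13 measured macrophage markers had a median difference of 0.04, with 0 passing in limma. At an unadjusted p under 0.05, 1 of them was lower (Fcgr1, at -0.24), against 4.54% of all genes. Mast cell and basophil markers varied between cultures. The mean of 13 measured markers lay between 5.68 and 6.19 in IL6raKO and between 5.88 and 6.36 in Ctrl, overlapping (exact permutation p = 0.371, two-sided), and 12 of the 13 were lower in IL6raKO with a median of -0.14. Of the 13, 5 were below the 25th percentile of brightness, among them Fcer1a and Ms4a2, which encode chains of the IgE receptor. Cpa3 ranged from 7.39 to 8.55 in IL6raKO and from 7.93 to 9.17 in Ctrl, with the top value in Ctrl replicate 4. When the mean level of the 13 genes entered the fit as a covariate, Socs3 differed by -0.28, Socs5 by 0.19, Cish by -0.11, Socs6 by 0.06, Socs7 by 0.05 and Socs2 by 0.02, and Socs1 (0.02) and Socs4 (-0.03) took the opposite sign. In such bulk samples fewer cells of a type and less RNA per cell cannot be told apart.

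Of markers of other cells, 0 passed in limma. Mmp8 of the neutrophil list was bright (11.03 in IL6raKO, 11.15 in Ctrl). So was Il7r of the T and NK cell list (12.21 in IL6raKO, 12.10 in Ctrl). The other genes of those lists were dimmer than either. The shares of all genes at an unadjusted p under 0.05 were 4.54% lower and 2.74% higher. The medians were -0.09 for 13 neutrophil genes (1 lower at an unadjusted p under 0.05), -0.10 for 7 B cell genes (0), -0.01 for 10 T and NK cell genes (2 lower, 1 higher), -0.06 for 8 dendritic cell genes (1 lower) and -0.06 for 8 stromal genes (1 lower). Their part in the values of the SOCS family was not tested.

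Leaving out each array in turn kept the sign of Socs3, Socs5 and Socs7, while Socs1, Socs2, Socs4, Socs6 and Cish took either sign. With 1 array left out, Socs3 lay between -0.33 and -0.22, Socs5 between 0.16 and 0.23 and Socs7 between 0.02 and 0.11, the lowest Socs7 value being that without IL6raKO replicate 3. Cish ranged from -0.10 without Ctrl replicate 2 to 0.10 without Ctrl replicate 3. In none of these fits did a member reach an adjusted p under 0.05 in limma.

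**Figure D5:**
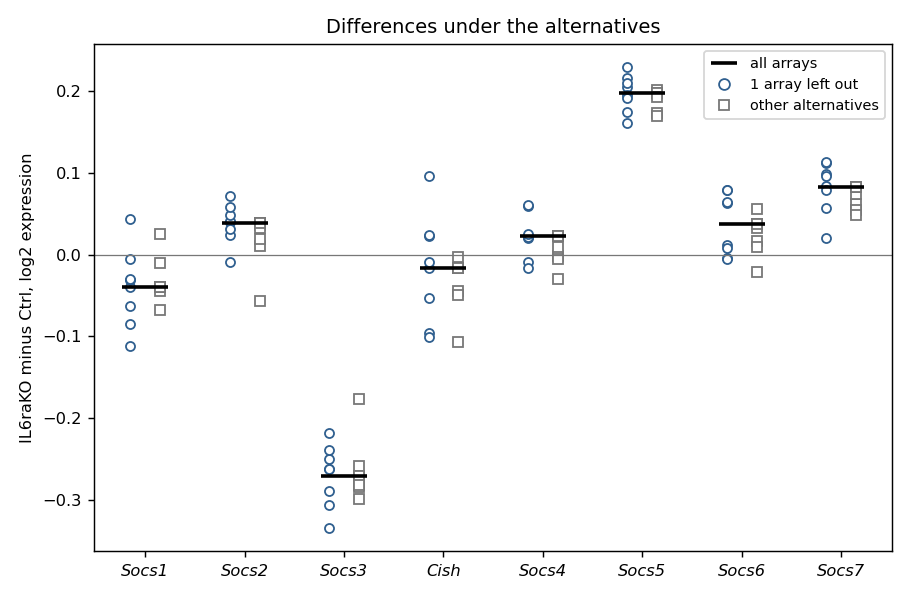
Difference of each SOCS family gene between IL6raKO and Ctrl on the log2 scale, with all 8 arrays (black bar), with 1 array left out (circles) and under the other alternatives (squares). Socs3 stays below 0, between -0.33 and -0.18, and Socs5 above it, between 0.16 and 0.23, while Cish, Socs1, Socs2, Socs4 and Socs6 fall on either side of 0.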

How the data were processed

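Labelled cDNA from each culture went onto 1 Affymetrix array, per the labels. The authors deposited log2 values for every probe set of each array. The submitters' processing notes name RMA (robust multi-array averaging) and R 2.13.1, while the genome build is not given in the sources used here. That values are on a log2 scale rests on their range, 1.96 to 14.2. Array medians lay between 6.31 and 6.35.

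Probe sets with a single symbol in GEO's platform annotation (21789) gave 19938 genes. IL6raKO minus Ctrl was tested with limma 3.58.1 in R 4.3.3 across all genes, all 8 arrays in 1 fit, no covariate, Benjamini-Hochberg adjustment, two-sided, threshold 0.05. Other probe sets were adjusted over all 35556. Exact permutation tests used scipy 1.17.1. The fit was tested on simulated data.

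The members, the lists, the rule for named genes (all members, the genotype and STAT genes, up to 4 list genes of lowest p, the 3 genes most alike to each member, neighbours of Socs3 and Cish, and Cpa3 and Mcpt8) and the alternatives were chosen with earlier results of these data known. Il6st, Jak1 and Csf1r were named after their values were seen. So were the macrophage markers Adgre1, Fcgr1 and Marco, the mast cell markers Fcer1a and Ms4a2, and Mmp8 and Il7r. List genes without a probe set named for them alone were not analysed here. RefSeq sequences are of GRCm38.p6. The result for 1 list of target genes is not reported here.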

Additional observations from a re-analysis of the deposited data

How the results depend on the processing

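With 4 arrays a group, a member's difference was known to within an SE of 0.06 to 0.12. No SOCS family member passed over all genes under any alternative. Where tested, Socs3 and Socs5 kept their sign and an unadjusted limma p under 0.05 in each (adjusted p 0.347 to 0.894 and 0.388 to 0.936). An exact permutation test (two-sided) gave p = 0.0571 for Socs3 and 0.0286, the smallest possible, for Socs5. Every gene whose groups do not overlap reaches that smallest value. Of all genes, 2.07% had IL6raKO wholly above Ctrl and 2.37% wholly below. The other Socs3 probe set had an unadjusted p of 0.281 in limma's fit of every probe set. With all arrays, 2 of 8 members had an unadjusted p under 0.05 in limma, 1 lower and 1 higher, against 4.54% of all genes lower and 2.74% higher. The filter at the median brightness removes Socs3 and Cish. The number of genes called over the whole array, 6 with all arrays, was 22 with a trended and robust variance model, 3 after repeated quantile normalization, 11 above the median and 11 above the 25th percentile of brightness, 12 at an adjusted p under 0.1, 0 with all probe sets tested (2124 at an unadjusted p under 0.05 in limma) and 0 with the mast cell and basophil covariate (1020). With any 1 array left out it was 0 to 1, the 1 being without IL6raKO replicate 1 or 2 (1138 to 1790 at an unadjusted p under 0.05). The cause was not tested. With the replicate number as a block it was 0 (1455 at an unadjusted p under 0.05), and Socs3 had a limma adjusted p of 0.658. The numbers did not pair the arrays, since deviations of same-numbered arrays correlated between -0.01 and 0.04.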

Other observations

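The genes whose values over the 8 arrays were most like those of a member were found by Pearson's r, as a description without a p, since the highest r among all genes over 8 arrays is large by construction. Those most like Socs3 were Mrfap1 (r = 0.96, Spearman's rho 0.88), Tspan18 (0.96, rho 0.90) and Cdc42ep5 (0.95, rho 0.90), and 42 genes had an r of at least 0.9. These 3 differed by -0.13, -0.15 and -0.22 between IL6raKO and Ctrl, so part of the likeness is the difference between genotypes. With the genotype means removed, their r with Socs3 was 0.89, 0.89 and 0.88. As the genes were picked on these same arrays, that r is also large by construction and is no separate check. Those most like Socs5 were Capn5 (r = 0.97), Taf11 (0.96) and Olfr1087 (0.96). The nearest gene by r was Plk5 for Socs1 (0.98), Zar1l for Socs2 (0.98), Hmces for Socs4 (0.97), Lrp12 for Socs7 (0.97) and Ppp1r1a for Cish (0.96). For Socs6 it was Asb16 (0.96), itself a SOCS box gene.

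The genes next to Socs3 in RefSeq order gave values nearer 0 than Socs3. On one side Tha1 differed by -0.13, Tmem235 by -0.03 and Birc5 by -0.06, and on the other Pgs1 by -0.03, Dnah17 by -0.03 and Cyth1 by 0.11, none of which passed (limma adjusted p 0.708 to 0.956). Beside Cish, Hemk1 differed by -0.20 (unadjusted p = 0.00641, limma adjusted p = 0.569), while Mapkapk3, Dock3 and Manf differed by 0.12, 0.13 and 0.05 and 6430571L13Rik and Cacna2d2 by -0.07 and -0.05.

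Mcpt8, a basophil protease, varied between cultures as Cpa3 did, with its highest value likewise in Ctrl replicate 4. It read 6.19, 7.20, 7.52 and 7.67 in IL6raKO and 6.87, 7.37, 7.81 and 8.33 in Ctrl, and its groups overlapped.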
